A study of Mus musculus with 15 samples.

Results

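The genes described here are 34 genes that type I interferons switch on in most mouse cells, taken by name from the 38924 genes listed for each library. Each name matched 1 row, and all 34 passed the filter on low counts that left 14967 genes. They were measured by RNA-seq in 15 libraries of CD11b+ CD3e- cells that had been sorted by FACS from the brains of male wild-type C57BL/6J mice at 12 months of age, after perfusion and with the olfactory bulb and cerebellum removed. CD45hi cells have a high surface level of the leukocyte protein CD45, as blood-derived myeloid cells do, and CD45lo cells a low level, as microglia do. Mice were either on control chow (CD, LabDiet 5K52) or on a Western diet (WD, TestDiet 5W80, high in fat and with fructose corn syrup) from 2 months of age, which gave 4 libraries of CD CD45hi, 4 of CD CD45lo, 3 of WD CD45hi and 4 of WD CD45lo cells. No group carried a transgene, a deletion or another treatment. The study's sort split CD11b+ CD45+ cells into both gates, so CD45hi and CD45lo libraries may share mice. Nothing in the labels says which libraries came from the same mouse.

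Type I interferons are cytokines made after a cell senses viral or misplaced nucleic acid. They bind the receptor pair Ifnar1 and Ifnar2, whose kinases Jak1 and Tyk2 activate a complex that contains Stat2 and Irf9, and this complex binds an interferon-stimulated response element in the promoters of its target genes. Many targets detect or degrade viral RNA or hinder viral entry and budding, and others, such as Usp18, dampen the response. Microglia and monocytes are both known to mount it, and a low tonic level of the same genes is usual in unchallenged immune cells.

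RefSeq promoter windows on GRCm38.p6, the build also called mm10, were found for 27 of the 34 genes. The core of the response element, GAAANNGAAA on either strand (TTTCNNTTTC on the other), was looked for in the 250 bases before each start site, with overlapping matches counted. It was present before at least 1 start site of 10 of these 27 genes and of 3.46% of all 27025 genes with a window. Of the 13 genes with a window that were called higher in CD45hi cells on either diet (below, adjusted p under 0.05), 5 held the core, as did 5 of the 14 that were called on neither diet. Dhx58, Mx1, Oas2, Parp14, Rtp4, Usp18 and Zbp1 had no entry. The promoters below are shown because they place genes with different results side by side: Ifit1, Oas3, Ifitm2 and Bst2 were called on at least 1 diet and hold the core, Isg15 has the most overlapping copies of it and was not called on either diet, and Ifitm3 was called on both diets with no match in the window. Each line gives bases 180 to 31 before the RefSeq start, 5′ to 3′ on the gene's strand, with the core in capitals.
Ifit1, chr19:34640709-34640858, plus strand: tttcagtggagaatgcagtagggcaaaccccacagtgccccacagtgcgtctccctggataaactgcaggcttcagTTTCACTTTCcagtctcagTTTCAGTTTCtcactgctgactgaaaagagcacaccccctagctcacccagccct
Oas3, chr5:120777690-120777839, minus strand: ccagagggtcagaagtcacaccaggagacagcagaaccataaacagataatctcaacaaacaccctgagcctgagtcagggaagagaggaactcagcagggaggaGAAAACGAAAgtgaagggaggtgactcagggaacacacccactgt
Ifitm2, chr7:140955992-140956141, minus strand: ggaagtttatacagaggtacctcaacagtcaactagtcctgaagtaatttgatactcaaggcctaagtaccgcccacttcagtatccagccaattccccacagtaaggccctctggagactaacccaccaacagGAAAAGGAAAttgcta
Bst2, chr8:71537503-71537652, minus strand: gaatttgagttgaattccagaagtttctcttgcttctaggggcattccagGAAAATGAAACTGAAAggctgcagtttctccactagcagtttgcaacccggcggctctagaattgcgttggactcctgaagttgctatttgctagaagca
Isg15, chr4:156200849-156200998, minus strand: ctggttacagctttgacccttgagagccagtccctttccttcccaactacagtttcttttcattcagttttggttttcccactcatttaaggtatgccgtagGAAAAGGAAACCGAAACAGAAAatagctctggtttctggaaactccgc
Ifitm3, chr7:141010775-141010924, minus strand: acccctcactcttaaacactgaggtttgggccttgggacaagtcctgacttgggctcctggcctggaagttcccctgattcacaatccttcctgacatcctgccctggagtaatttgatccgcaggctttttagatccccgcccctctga
In these lines Ifit1 has 2 cores, Oas3 and Ifitm2 have 1 each, Bst2 has 2 that overlap and Isg15 has 3 that overlap. A match is a description of the letters only, and its absence says nothing of the factor.

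Depth was 11951412 to 17912272 expected counts per library, so that 3 counts, used as the smallest measurable level, equal 0.16 to 0.28 cpm (counts scaled to the library size) after TMM normalization, a floor that covers counting error only. All cpm values below are on that scale. The sort was visible in the data: Ptprc, which encodes CD45, was 778 to 1290 cpm in CD45hi and 356 to 488 cpm in CD45lo libraries, and Itgam, which encodes CD11b, was 1508 to 2207 cpm throughout. Genes of the mitochondrial genome took 17.7 to 20.5% of the counts in CD45hi libraries and 7.99 to 10.9% in CD45lo libraries. The summed level of 8 microglial markers was 12862 to 16785 cpm in CD45lo and 6049 to 7389 cpm in CD45hi libraries, so that cells with microglial transcripts were present in both gates.

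The first question the design asks is how CD45hi cells differ from CD45lo cells on each diet. Of the interferon response genes, 14 of 34 in CD-fed mice were called higher in CD45hi cells and 0 lower, and in WD-fed mice 16 of 34 were called higher and 0 lower. A call is an adjusted p under 0.05 (Benjamini-Hochberg over 14967 genes) from edgeR's glmTreat test that the fold change exceeds 1.5. Over all genes tested, 3.39% were called higher and 0.588% lower in CD-fed mice, and 4.01% higher and 1.17% lower in WD-fed mice. The median log2 fold change over the 34 genes was 1.47 in CD-fed and 1.66 in WD-fed mice, beside 0.04 and 0.00 over all genes tested. Because the 34 genes were chosen with earlier results of these data known, their contrast with all genes is a description and not a test. Tested for any change by glmQLFTest, 21 of the 34 genes were higher in CD-fed mice and 20 in WD-fed mice, beside 5.95% and 6.22% of all genes. Genes described below as not called thus include some that passed this test. Examples are Bst2 on the WD (adjusted p = 0.0338 by glmQLFTest) and Parp14 on the CD and the WD (0.0344 and 0.0287). Every CD45hi library lay above every CD45lo library for 21 of the 34 genes in CD-fed mice and 22 in WD-fed mice, beside 8.26% and 10.0% of all genes.

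Leaving out CD CD45lo replicate 4 lowered the number called in CD-fed mice to 9, and leaving out WD CD45lo replicate 3 or 4 lowered that in WD-fed mice to 11. DESeq2 called 15 and 16 of the 34 genes on the CD and the WD, and limma-voom 11 and 14. With libraries of a diet that share a number fitted as a block, 8 and 8 were called. That held for the replicate numbers in the titles and for the numbers in the file names. The calls that these blocks ended are listed in the closing section and not with each gene. The count stayed at 14 and 16 when mitochondrial genes were left out before normalization, a setting chosen after seeing the data.

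**Figure D1:**
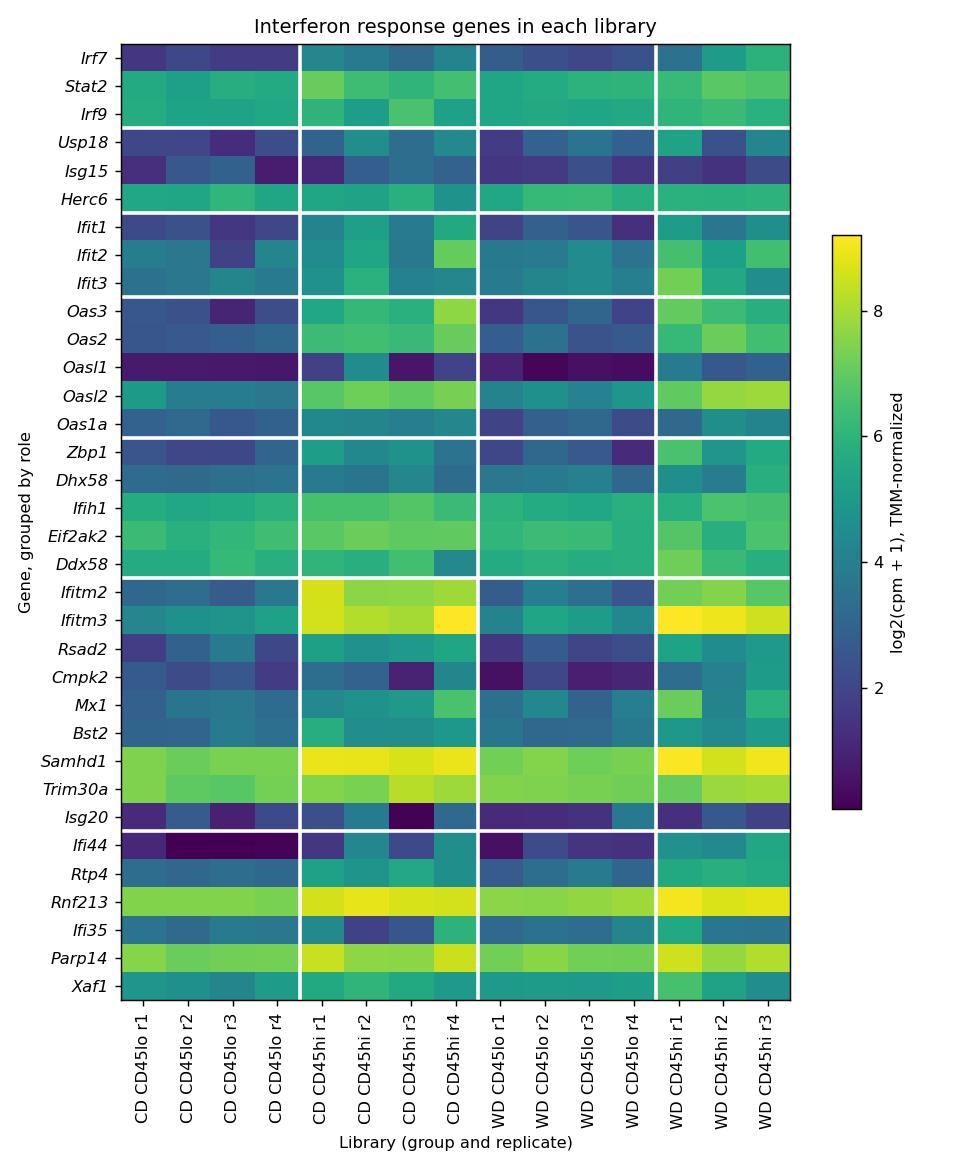
Level of each of the 34 genes (rows, grouped by role and, within a role, ordered by the mean log2 fold change between CD45 levels) in each of the 15 libraries (columns, r1 to r4 are replicates), coloured by log2(cpm + 1). White lines part roles and groups. Ifitm2, Ifitm3, Oas2, Oas3 and Oasl2 are brighter in all CD45hi columns, while Isg15, Herc6 and Irf9 are of like colour in the groups.

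As 1 value per library, the mean log2 cpm over the 34 genes was 3.48 to 3.63 in CD CD45lo, 4.91 to 5.63 in CD CD45hi, 3.40 to 3.96 in WD CD45lo and 5.42 to 5.84 in WD CD45hi libraries. The CD45hi and CD45lo libraries did not overlap on either diet. The difference of the group means was 1.74 in CD-fed mice (5.31 ± 0.31 against 3.58 ± 0.07, SD, n = 4 and 4) and 1.95 in WD-fed mice (5.66 ± 0.22 against 3.71 ± 0.24, SD, n = 3 and 4). The mean log2 cpm over all genes tested was 2.88 to 3.19 in CD45hi and 3.16 to 3.34 in CD45lo libraries, so that it was not higher in CD45hi cells. On the log2(TPM + 1) scale of the deposited TPM the difference was smaller, 1.2 and 1.23.

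**Figure D2:**
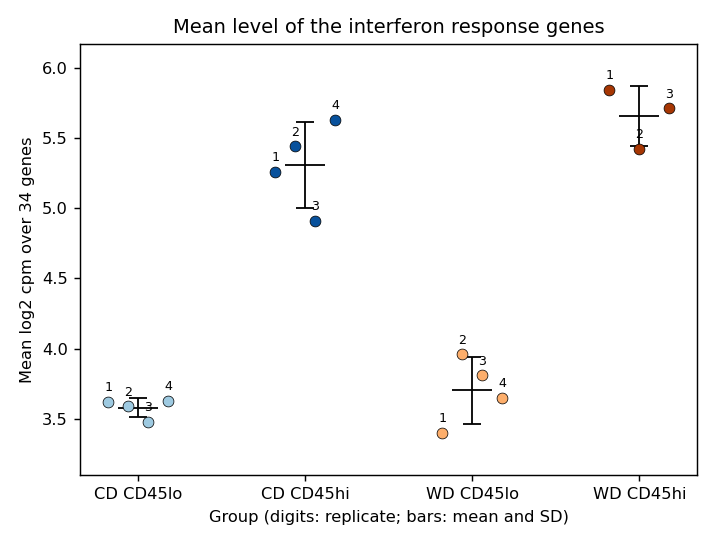
Mean log2 cpm over the 34 genes (y axis) for each library, by group (x axis); digits are replicate numbers and bars give the mean and SD. The CD45hi libraries, 4.91 and above, lie above all CD45lo libraries, 3.96 and below, and the diets overlap within each CD45 level.

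The same mean was taken over the genes of each role, and differences between roles were not tested. Over the 5 oligoadenylate synthetase genes the mean log2 cpm was 1.72 to 2.40 in CD45lo and 4.46 to 5.66 in CD45hi libraries, with no overlap. Over the 5 nucleic acid sensors it was 4.35 to 4.88 in CD45lo and 4.83 to 5.81 in CD45hi libraries of CD-fed mice, which overlapped, and 4.18 to 4.91 and 5.45 to 6.16 in WD-fed mice, which did not. Over the 3 genes of the ISG15 system it was 2.40 to 3.15 in CD45lo and 2.84 to 4.14 in CD45hi libraries of CD-fed mice and 2.57 to 3.90 and 2.94 to 4.18 in WD-fed mice, with overlap on both diets. The remaining roles did not overlap on either diet. Their means were 2.24 to 3.69 in CD45lo and 3.81 to 6.26 in CD45hi libraries for IFIT, and 3.20 to 4.04 and 4.98 to 6.44 for antiviral effectors. For signalling and transcription they were 4.09 to 4.55 and 5.08 to 6.17, and for the genes outside these roles 3.80 to 4.79 and 5.24 to 6.65.

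**Figure D3:**
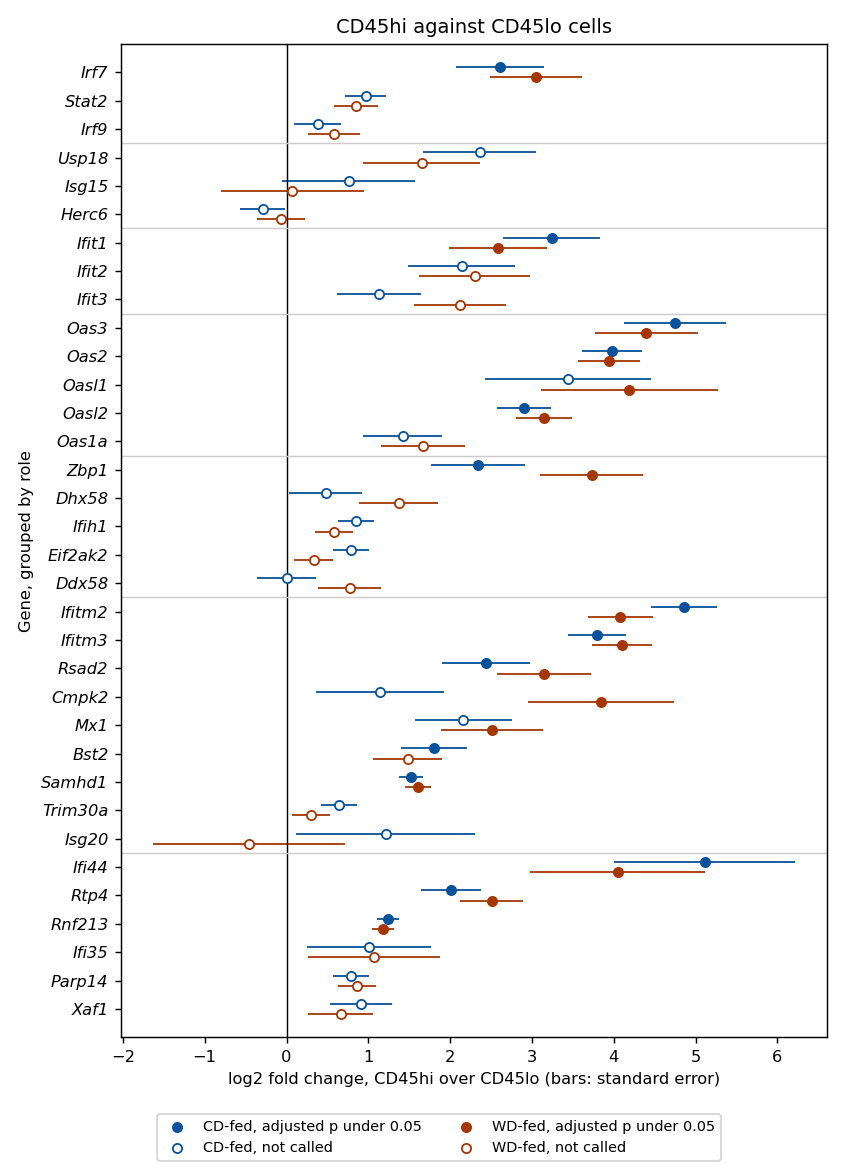
log2 fold change of CD45hi over CD45lo cells (x axis, bars are the standard error) for each gene (y axis, grouped by role) in CD-fed (blue) and WD-fed (brown) mice; filled points were called and open points were not. All filled points are to the right of 0, from 1.18 for Rnf213 to 5.11 for Ifi44.

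Of the genes of signalling and transcription, only Irf7 was called among Irf7, Irf9 and Stat2, on both diets. Irf7 (chr7:141262706-141266481, GENCODE M21 on mm10, minus strand) encodes the factor that amplifies interferon production. It was 1.88, 3.16, 2.27 and 2.16 cpm in CD CD45lo and 18.9, 13.6, 8.45 and 17.2 cpm in CD CD45hi libraries. On the WD it was 5.77, 3.93, 3.07 and 4.17 cpm in CD45lo and 10.5, 33.9 and 61.0 cpm in CD45hi libraries, so that the gates did not overlap on either diet. The log2 fold change was 2.61 ± 0.54 (SE, adjusted p = 0.0133) in CD-fed and 3.05 ± 0.57 (SE, adjusted p = 0.00492) in WD-fed mice. The call in CD-fed mice was lost without CD CD45lo replicate 1 (adjusted p = 0.0544) or replicate 4 (adjusted p = 0.0502), and in limma-voom. Stat2 and Irf9, which are parts of the DNA-binding complex, were not called. Stat2 was 36.7 to 64.0 cpm in CD45lo and 64.9 to 133 cpm in CD45hi libraries, with log2 fold changes of 0.97 ± 0.25 and 0.85 ± 0.27 (SE) on the CD and the WD and no overlap within a diet. Irf9 was 39.2 to 52.2 cpm in CD45lo and 34.4 to 95.4 cpm in CD45hi libraries, with log2 fold changes of 0.38 ± 0.29 and 0.58 ± 0.31 (SE).

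None of the 3 genes of the ISG15 system was called. Isg15 encodes the ubiquitin-like modifier that gives the family its name, Herc6 its main ligase in mice, and Usp18 the protease that removes it and also blocks the interferon receptor. Isg15 was 1.53, 4.83, 6.52 and 0.738 cpm in CD CD45lo and 1.11, 6.04, 9.33 and 6.63 cpm in CD CD45hi libraries. In WD-fed mice it was 1.84, 2.08, 3.90 and 1.89 cpm in CD45lo and 2.45, 1.68 and 3.53 cpm in CD45hi libraries. No Isg15 value exceeded 9.33 cpm, and the gates overlapped on both diets, with log2 fold changes of 0.76 ± 0.81 and 0.07 ± 0.87 (SE). Herc6 was 43.1 to 76.3 cpm in CD45lo and 25.5 to 61.3 cpm in CD45hi libraries, and its fitted log2 fold changes were -0.29 ± 0.28 in CD-fed and -0.07 ± 0.30 in WD-fed mice (SE). Usp18 was 1.41 to 10.6 cpm in CD45lo and 4.23 to 39.3 cpm in CD45hi libraries, with log2 fold changes of 2.36 ± 0.69 (SE, adjusted p = 0.0989 by glmTreat) and 1.65 ± 0.71 (SE, adjusted p = 0.281). All 4 CD CD45hi values of Usp18 exceeded those of CD CD45lo cells, while on the WD the gates overlapped.

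The IFIT proteins bind viral RNA that lacks the marks of host messages, and their genes lie next to each other on chromosome 19. Ifit1 (chr19:34640871-34650009, plus strand) was 3.24, 4.00, 1.91 and 3.06 cpm in CD CD45lo and 17.0, 36.7, 13.3 and 48.4 cpm in CD CD45hi libraries. Under the WD it was 2.82, 6.23, 4.56 and 1.52 cpm in CD45lo and 33.0, 11.5 and 23.8 cpm in CD45hi libraries. The gates did not overlap, and Ifit1 was called on both diets, with log2 fold changes of 3.24 ± 0.59 (SE, adjusted p = 0.00438) and 2.59 ± 0.60 (SE, adjusted p = 0.0247). The call in WD-fed mice was lost in limma-voom (adjusted p = 0.119) and in a fit of the compared groups alone (0.0805). It was also lost without WD CD45hi replicate 1 or WD CD45lo replicate 1, 3 or 4, with adjusted p between 0.0555 and 0.0828. Ifit2 was 2.70 to 21.1 cpm in CD45lo and 12.6 to 130 cpm in CD45hi libraries, where the highest value was that of CD CD45hi replicate 4, and its log2 fold changes of 2.14 ± 0.65 and 2.3 ± 0.68 (SE) were not called. Ifit3 was 10.3 to 21.4 cpm in CD45lo and 16.0 to 153 cpm in CD45hi libraries, the highest in WD CD45hi replicate 1, with log2 fold changes of 1.13 ± 0.52 and 2.12 ± 0.56 (SE) that were not called. RSEM gave Ifit3 a fractional count in all 15 libraries, as reads shared between genes do.

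Oligoadenylate synthetases make the second messenger that activates RNase L when they meet double-stranded RNA. Their genes lie in 2 groups on chromosome 5, Oas1a, Oas2 and Oas3 in one and Oasl1 and Oasl2 in another, and 3 of the 5 were called in CD-fed and 4 in WD-fed mice, the largest share of any role. Oas2 (chr5:120730333-120749853, minus strand) was 4.65, 5.14, 5.96 and 7.89 cpm in CD CD45lo and 79.1, 84.6, 73.6 and 135 cpm in CD CD45hi libraries. With WD feeding it was 5.90, 10.5, 4.28 and 5.38 cpm in CD45lo and 72.1, 141 and 86.7 cpm in CD45hi libraries. The lowest CD45hi library thus stood far above the highest CD45lo library, and the log2 fold changes were 3.98 ± 0.37 (SE, adjusted p = 5.31e-06) and 3.94 ± 0.38 (SE, adjusted p = 8.81e-06).

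Oas3 (chr5:120753098-120777661, minus strand), whose promoter is printed above, was 4.88, 4.05, 1.04 and 3.86 cpm in CD CD45lo and 44.7, 70.0, 56.7 and 202 cpm in CD CD45hi libraries. On the WD it was 1.90, 4.75, 7.25 and 2.73 cpm in CD45lo and 129, 79.6 and 55.4 cpm in CD45hi libraries. The gates did not overlap, and the log2 fold changes were 4.75 ± 0.62 (SE, adjusted p = 0.000162) and 4.40 ± 0.63 (SE, adjusted p = 0.00037). RSEM gave Oas3 fractional counts in all 15 libraries. Oasl2 (chr5:114896936-114912234, plus strand), an oligoadenylate synthetase-like protein, was 32.1, 14.0, 14.0 and 12.4 cpm in CD CD45lo and 113, 144, 124 and 161 cpm in CD CD45hi libraries. In WD-fed mice it was 16.9, 24.1, 16.3 and 27.9 cpm in CD45lo and 124, 213 and 229 cpm in CD45hi libraries. The gates were again apart, with log2 fold changes of 2.90 ± 0.33 (SE, adjusted p = 6.71e-05) and 3.15 ± 0.34 (SE, adjusted p = 3.79e-05). The calls of Oas2, Oas3 and Oasl2 on both diets held under each alternative that was run, among them the leaving out of each library.

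Oasl1 (chr5:114923240-114937915, plus strand), which represses translation of Irf7, was low in CD45lo cells, at 0.647, 0.675, 0.615 and 0.567 cpm on the CD and 0.918, 0.148, 0.384 and 0.303 cpm on the WD. The value of 0.148 cpm is below the floor of 3 counts. In CD45hi cells Oasl1 was 2.62, 21.5, 0.528 and 2.77 cpm on the CD and 13, 5.03 and 6.52 cpm on the WD. The gates overlapped on the CD through replicate 3 and not on the WD, where the log2 fold change was 4.19 ± 1.08 (SE, adjusted p = 0.0339). This call was lost without WD CD45hi replicate 1 or WD CD45lo replicate 2, 3 or 4, with adjusted p between 0.0834 and 0.102. On the CD the log2 fold change of Oasl1 was 3.44 ± 1.01 (SE, adjusted p = 0.0845). Oas1a was 2.88 to 8.25 cpm in CD45lo and 8.28 to 23.1 cpm in CD45hi libraries with no overlap within a diet, and its log2 fold changes of 1.42 ± 0.48 and 1.67 ± 0.51 (SE) were not called. RSEM gave Oas1a fractional counts in 14 of the 15 libraries, so its level is uncertain against its near-identical neighbours.

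Among the nucleic acid sensors, Zbp1 was called on both diets, and Ifih1, Ddx58, Dhx58 and Eif2ak2 on neither. Zbp1 (chr2:173206612-173218923, minus strand) encodes a sensor of Z-form nucleic acid that can start necroptosis. It was 4.59, 3.06, 3.13 and 7.26 cpm in CD CD45lo and 35.5, 19.3, 26 and 10.6 cpm in CD CD45hi libraries. Under the WD it was 3.02, 7.64, 5.22 and 1.29 cpm in CD45lo and 94.3, 27.2 and 49.1 cpm in CD45hi libraries. There was no overlap, and the log2 fold change was 2.34 ± 0.58 (SE, adjusted p = 0.046) in CD-fed and 3.73 ± 0.63 (SE, adjusted p = 0.00196) in WD-fed mice. The call in CD-fed mice was lost in limma-voom (adjusted p = 0.181), without the filter on low counts (0.0526) and in a fit of the compared groups alone (0.0509). It was also lost without any 1 of 9 libraries (each CD CD45lo library, CD CD45hi replicates 1, 2 and 3, and WD CD45lo replicates 1 and 3), with adjusted p between 0.0505 and 0.15.

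The cytoplasmic RNA helicases were expressed in both gates at levels nearer to each other. Ifih1, which encodes MDA5, was 44.5 to 62.1 cpm in CD45lo and 54.4 to 108 cpm in CD45hi libraries, with log2 fold changes of 0.85 ± 0.22 and 0.58 ± 0.24 (SE). Ddx58, which encodes RIG-I, was 50.1 to 71.5 cpm in CD45lo and 19.6 to 144 cpm in CD45hi libraries, with log2 fold changes of -0.00 ± 0.36 and 0.77 ± 0.39 (SE). Dhx58, which encodes their regulator LGP2, was 7.96 to 15.7 cpm in CD45lo and 8.95 to 56.2 cpm in CD45hi libraries, with log2 fold changes of 0.48 ± 0.45 and 1.37 ± 0.48 (SE). Eif2ak2, which encodes the RNA-activated kinase PKR, was 53.9 to 83.9 cpm in CD45lo and 54.5 to 137 cpm in CD45hi libraries, with log2 fold changes of 0.79 ± 0.22 and 0.33 ± 0.24 (SE). The gates overlapped on both diets for Ddx58 and Dhx58 and on the WD for Ifih1 and Eif2ak2.

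Of the 9 antiviral effectors 5 were called in CD-fed and 6 in WD-fed mice. Ifitm2 and Ifitm3 encode small membrane proteins that hold viruses in endosomes, and lie on chromosome 7 at 140954837 to 140955987 and at 141009586 to 141010770, both on the minus strand. Ifitm3 was 18.7, 24.1, 26.6 and 38.0 cpm in CD CD45lo and 377, 281, 248 and 584 cpm in CD CD45hi libraries. With WD feeding it was 16.8, 44.0, 33.0 and 19.0 cpm in CD45lo and 587, 496 and 374 cpm in CD45hi libraries. All CD45hi values exceeded all CD45lo values, with log2 fold changes of 3.79 ± 0.36 (SE, adjusted p = 5.67e-06) and 4.10 ± 0.37 (SE, adjusted p = 3.75e-06). Ifitm2 was 7.82, 9.03, 5.65 and 12.4 cpm in CD CD45lo and 386, 193, 199 and 237 cpm in CD CD45hi libraries. On the WD it was 5.77, 15.2, 9.88 and 4.55 cpm in CD45lo and 152, 183 and 114 cpm in CD45hi libraries. The gates were apart here too, with log2 fold changes of 4.86 ± 0.40 (SE, adjusted p = 1.11e-06) and 4.08 ± 0.40 (SE, adjusted p = 1.03e-05). Per transcript length, on the deposited TPM scale, Ifitm3 had the highest mean level of the 34 genes in CD45hi cells, 978 ± 332 TPM on the CD and 1227 ± 255 TPM on the WD (SD, n = 4 and 3), followed by Ifitm2 at 750 ± 265 and 419 ± 84.9 TPM. In CD45lo cells Trim30a had the highest mean, 190 ± 60.9 and 242 ± 37.1 TPM (SD, n = 4 and 4), and Ifitm3 was at 100 ± 33.1 and 106 ± 50.8 TPM.

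Samhd1 (chr2:157097533-157135265, minus strand) encodes an enzyme that breaks down the deoxynucleotides that reverse transcription needs. It was 172, 141, 163 and 165 cpm in CD CD45lo and 485, 481, 396 and 482 cpm in CD CD45hi libraries. In WD-fed mice it was 153, 183, 145 and 160 cpm in CD45lo and 571, 381 and 513 cpm in CD45hi libraries. Samhd1 was therefore well expressed in both gates and higher in CD45hi cells, with log2 fold changes of 1.52 ± 0.15 (SE, adjusted p = 0.000101) and 1.61 ± 0.16 (SE, adjusted p = 8.25e-05). RSEM gave it fractional counts in all 15 libraries, as it did in 11 for Ifitm2. The calls of Ifitm2, Ifitm3 and Samhd1 held on both diets under each alternative that was run.

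Rsad2, which encodes viperin, and Cmpk2, which encodes a mitochondrial nucleotide kinase, are neighbours on chromosome 12, at 26442746 to 26456452 and at 26469204 to 26479837. Rsad2 was 2.41, 6.54, 13 and 3.12 cpm in CD CD45lo and 37.3, 24.5, 30.5 and 43.8 cpm in CD CD45hi libraries. Under the WD it was 1.84, 5.64, 2.91 and 3.64 cpm in CD45lo and 40.6, 21.9 and 31.1 cpm in CD45hi libraries. It was called on both diets without overlap, with log2 fold changes of 2.44 ± 0.54 (SE, adjusted p = 0.0226) and 3.15 ± 0.58 (SE, adjusted p = 0.00434), the former not without CD CD45hi replicate 4 or CD CD45lo replicate 1, 2 or 4 (adjusted p between 0.0552 and 0.0868). Cmpk2 was 5.35, 3.53, 4.92 and 2.16 cpm in CD CD45lo and 9.44, 6.71, 0.968 and 18 cpm in CD CD45hi libraries. With WD feeding it was 0.393, 3.04, 0.824 and 1.06 cpm in CD45lo and 9.12, 15.4 and 32.7 cpm in CD45hi libraries. The gates overlapped on the CD, where the log2 fold change of Cmpk2 was 1.14 ± 0.78 (SE, adjusted p = 0.723), and not on the WD, where it was 3.84 ± 0.89 (SE, adjusted p = 0.0196). The call on the WD was lost without WD CD45hi replicate 3 or WD CD45lo replicate 1, 3 or 4, with adjusted p between 0.0638 and 0.0701.

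Bst2 (chr8:71534255-71537456, minus strand) encodes tetherin, which holds budding virus on the cell surface. It was 7.12, 7.37, 12.8 and 9.53 cpm in CD CD45lo and 52.7, 22.6, 23.0 and 30 cpm in CD CD45hi libraries. On the WD it was 11.4, 7.87, 8.13 and 12.5 cpm in CD45lo and 29.8, 20.5 and 33.2 cpm in CD45hi libraries. Although the gates did not overlap on either diet, Bst2 was called on the CD alone, with a log2 fold change of 1.80 ± 0.40 (SE, adjusted p = 0.0348) against 1.48 ± 0.42 (SE, adjusted p = 0.106) on the WD. The call was lost in limma-voom (adjusted p = 0.0851), without the filter on low counts (0.0696) and in a fit of the compared groups alone (0.0727). It was also lost without CD CD45hi replicate 1 or CD CD45lo replicate 1, 2 or 4, with adjusted p between 0.0938 and 0.125.

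Mx1 (chr16:97447035-97462907, minus strand) encodes a dynamin-like GTPase, of which C57BL/6 mice carry an allele that gives no functional protein. Its transcript was 6.29, 11.4, 12.2 and 8.51 cpm in CD CD45lo and 19.9, 26.4, 31.1 and 94.6 cpm in CD CD45hi libraries. In WD-fed mice it was 10, 19.0, 6.86 and 14.6 cpm in CD45lo and 139, 17.4 and 58.7 cpm in CD45hi libraries. The gates overlapped on the WD, on which Mx1 was called with a log2 fold change of 2.51 ± 0.63 (SE, adjusted p = 0.0394), and not on the CD, on which it was 2.16 ± 0.60 (SE, adjusted p = 0.0817). Without WD CD45hi replicate 1 the log2 fold change on the WD was 1.59 (adjusted p = 0.224), and the call was also lost in limma-voom (0.248) and in a fit of the compared groups alone (0.0873). The same held without any 1 WD CD45lo library or CD CD45lo replicate 2 or 4, with adjusted p between 0.0507 and 0.115.

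Trim30a, a TRIM family protein, was 113 to 177 cpm in CD45lo and 135 to 297 cpm in CD45hi libraries with fractional counts in all 15 libraries, and its log2 fold changes were 0.64 ± 0.22 and 0.30 ± 0.24 (SE). Isg20, which encodes an RNA exonuclease, was 0.861 to 12.5 cpm in CD45lo and 0.088 to 13.8 cpm in CD45hi libraries. The lowest of these Isg20 values is below 3 counts, and its fitted log2 fold changes were 1.21 ± 1.09 and -0.46 ± 1.17 (SE). Neither gene was called on either diet.

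**Figure D4:**
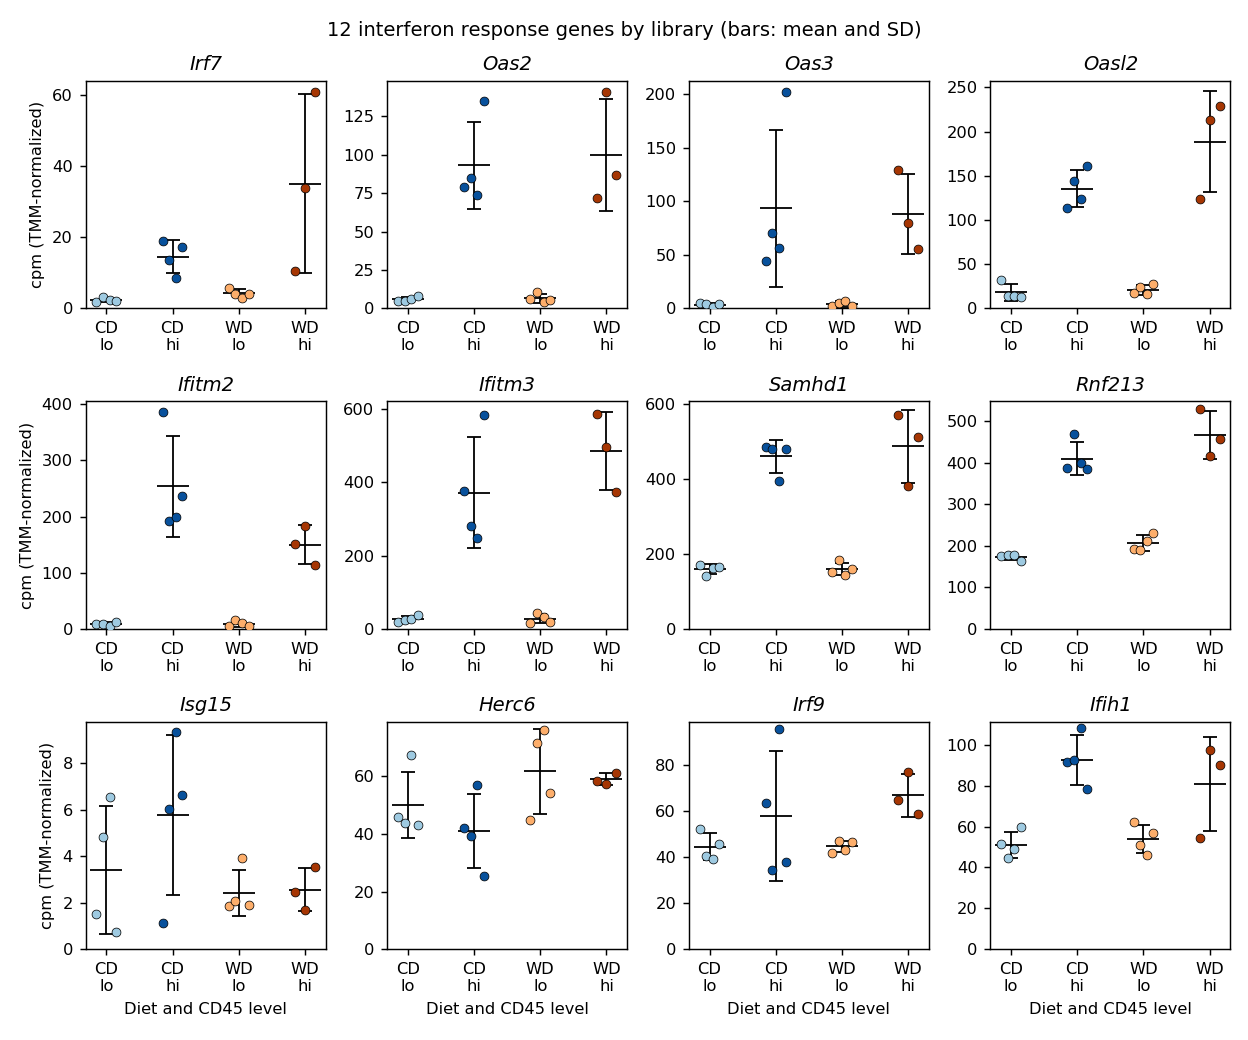
Level in cpm (y axis, from 0) of 12 of the genes in each library by diet and CD45 level (x axis); points are libraries and bars the mean and SD. Irf7, the 3 OAS genes, Ifitm2, Ifitm3, Samhd1 and Rnf213 are apart between gates on both diets, whereas Isg15 stays at or below 9.33 cpm and Isg15, Herc6 and, in CD-fed mice, Irf9 overlap.

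The last 6 genes do not fall into the roles above, and Ifi44, Rtp4 and Rnf213 were called among them on both diets. Rnf213 (chr11:119393100-119487418, plus strand) encodes a very large ubiquitin ligase. It was 175, 177, 178 and 163 cpm in CD CD45lo and 388, 469, 398 and 385 cpm in CD CD45hi libraries. Under the WD it was 193, 189, 211 and 231 cpm in CD45lo and 529, 415 and 458 cpm in CD45hi libraries. Replicates of Rnf213 were close to each other, so that log2 fold changes of 1.24 ± 0.13 (SE, adjusted p = 0.000737) and 1.18 ± 0.14 (SE, adjusted p = 0.00262) were called although they were the smallest of the called values. Rtp4 (chr16:23520291-23614222, plus strand), a receptor transporter protein, was 9, 7.52, 9.10 and 7.77 cpm in CD CD45lo and 38.2, 26.6, 46.9 and 23.3 cpm in CD CD45hi libraries. With WD feeding it was 5.44, 9.28, 13.6 and 7.35 cpm in CD45lo and 47.5, 56.3 and 48.9 cpm in CD45hi libraries. The gates did not overlap, with log2 fold changes of 2.01 ± 0.36 (SE, adjusted p = 0.00837) and 2.51 ± 0.39 (SE, adjusted p = 0.00141).

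Ifi44 (chr3:151730922-151749960, minus strand) was below the floor of 3 counts in 3 of the 4 CD45lo libraries on the CD, at 1.12, 0.0519, 0.0615 and 0.113 cpm, and it was 0.393, 3.49, 1.70 and 1.59 cpm on the WD. In CD45hi cells it was 1.83, 18.8, 3.25 and 23.3 cpm on the CD and 24.5, 20 and 44.9 cpm on the WD. The fitted log2 fold change in CD-fed mice was 5.11 ± 1.11 (SE, adjusted p = 0.0127), with values from 4.54 to 7.14 over the alternatives, so its size is not settled, and it was 4.05 ± 1.07 (SE, adjusted p = 0.0394) in WD-fed mice. The former call was lost in a fit of the compared groups alone (adjusted p = 0.0562) and without CD CD45lo replicate 2 or 4 (adjusted p = 0.0508 and 0.0525), and the latter without WD CD45hi replicate 1 or 3 or any WD CD45lo library (adjusted p between 0.0511 and 0.114). Parp14, an ADP-ribosyltransferase, was 138 to 190 cpm in CD45lo and 195 to 375 cpm in CD45hi libraries with no overlap within a diet, and its log2 fold changes of 0.79 ± 0.22 and 0.86 ± 0.24 (SE) were not called. Xaf1, a binding partner of the apoptosis inhibitor XIAP, and Ifi35 were not called either, with log2 fold changes of 0.91 ± 0.38 and 0.66 ± 0.40 for Xaf1 and of 1.01 ± 0.76 and 1.07 ± 0.81 for Ifi35 (SE). Ifi35 ranged from 2.57 to 61.9 cpm within CD CD45hi libraries, wider than the difference between gates.

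The gates also differed in the markers of other cell types. The summed level of 5 patrolling monocyte markers (Ace, Ear2, Spn, Treml4 and Cd300e) was 1.89 to 7.52 cpm in CD45lo and 140.0 to 554 cpm in CD45hi libraries, and all 5 were called higher on both diets. For the 6 classical monocyte markers found it was 28.4 to 136 and 398 to 1009 cpm (4 called on the CD and 2 on the WD), for 7 neutrophil markers 569 to 851 and 1314 to 3350 cpm (5 and 5 called), and for 5 border macrophage markers 53.6 to 203 and 616 to 2337 cpm (5 and 5 called). Most of the neutrophil sum in CD45lo libraries was Csf3r, at 465 to 744 cpm there and 593 to 885 cpm in CD45hi libraries. Csf3r and Ly6g were the neutrophil markers not called. For 6 T and NK cell markers the summed level was at most 0.104 cpm in CD45lo and 10.6 to 140.0 cpm in CD45hi libraries, with Cd3e and Cd3g at 0 in WD CD45hi cells. For 5 dendritic cell markers it was 18.8 to 35.7 cpm in CD45lo and 121 to 296 cpm in CD45hi libraries (1 called on each diet, Cd209a), and for 3 B cell markers at most 0.467 and 1.05 to 17.7 cpm (0 called on the CD and 1 on the WD). Most of the dendritic cell sum in CD45hi libraries was Cd209a, at 96.8 to 218 cpm. For 3 endothelial markers the summed level was 1.29 to 13.6 cpm in CD45lo and 16.9 to 75.9 cpm in CD45hi libraries (1 called on each diet, Flt1). Most of that sum in CD45hi libraries was Flt1, at 16.2 to 68.4 cpm. Cldn5 and Mcam were low, and Mcam had a log2 fold change of -1.53 ± 1.31 (SE) on the CD and 2.21 ± 1.39 on the WD. For 5 markers of plasmacytoid dendritic cells, which are strong producers of interferon, the summed level was 1.23 to 8.26 cpm in CD45lo and 0.328 to 5.60 cpm in CD45hi libraries, with Klk1 at 0 in all libraries and 0 of 5 called. Apart from the plasmacytoid dendritic cell list, the summed levels of these lists and the mitochondrial share were higher in CD45hi libraries, and their part in the result was not tested. In bulk samples a higher share of cells that express a gene and more of its RNA per cell cannot be told apart.

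Genes of the same pathway that are not among the 34 were looked at by fixed lists. Of 10 interferon genes looked up (Ifnb1, Ifna1, Ifna2, Ifna4, Ifna5, Ifna6, Ifna11, Ifnk, Ifne and Ifng), none passed the filter on low counts. Ifnb1, which encodes interferon beta, was 12.2 cpm in CD CD45hi replicate 4 and 0 in the other 14 libraries. Of the 4 CD CD45hi libraries that one was the highest for 12 of the 34 genes, among them Ifit1, Oas3 and Ifitm3, and the lowest for 8, among them Zbp1, Ddx58 and Herc6, where the other 3 libraries were the highest for 7 to 8 genes and the lowest for 6 to 13. Its mean log2 cpm over the 34 genes, 5.63, was the highest of the CD CD45hi libraries (5.26, 5.44 and 4.91 in replicates 1, 2 and 3). WD CD45hi replicates 1, 2 and 3, where Ifnb1 was 0, had 5.84, 5.42 and 5.71. Whether Ifnb1 bears on these levels was not tested. Ifna1, Ifna2, Ifna4, Ifna5, Ifna11 and Ifne were 0 in all 15 libraries, Ifna6 was 0.369 cpm in CD CD45lo replicate 3 and otherwise 0, Ifnk at most 0.92 cpm and Ifng at most 1.49 cpm.

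Receptor chains were present in both gates. Ifnar1 was 91.6 to 123 cpm in CD45lo and 83.8 to 316 cpm in CD45hi libraries, with log2 fold changes of 1.03 ± 0.24 and 0.57 ± 0.26 (SE) on the CD and the WD that were not called. Ifnar2 was 181 to 230 cpm in CD45lo and 171 to 299 cpm in CD45hi libraries, with log2 fold changes of -0.01 ± 0.17 and 0.26 ± 0.18 (SE). The interferon gamma receptor chain Ifngr1 had fitted log2 fold changes of -0.82 ± 0.14 and -0.40 ± 0.15 (SE), and Ifngr2 of 0.14 ± 0.20 and 0.11 ± 0.22 (SE). Of the 7 receptors and kinases and of the 6 transcription factors, 0 were called on either diet. Among the latter, Irf1, a factor induced by both interferon types, had log2 fold changes of 1.56 ± 0.45 on the CD and -0.07 ± 0.47 on the WD (SE).

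Of 15 genes of the pathways that lead to interferon production, 3 were called higher in CD-fed mice, and 2 higher and 1 lower in WD-fed mice. The DNA-binding PYHIN proteins Ifi203 and Ifi204 were called on both diets, Ifi203 with log2 fold changes of 5.12 ± 0.42 and 3.96 ± 0.40 (SE) and Ifi204 with 2.66 ± 0.30 and 2.86 ± 0.32 (SE). Trim25, the ligase that activates RIG-I, was called on the CD (log2 fold change 1.38 ± 0.26, SE, adjusted p = 0.0231) and had 1.24 ± 0.27 (SE, adjusted p = 0.0595) on the WD. Tlr3, the endosomal receptor for double-stranded RNA, was lower in CD45hi cells, by a log2 fold change of -1.10 ± 0.20 (SE, adjusted p = 0.044) on the WD, and had -1.02 ± 0.18 (SE, adjusted p = 0.0746) on the CD. Of 7 negative regulators 0 were called, and the 2 with the lowest p were Socs3 and Adar on the CD, with log2 fold changes of 1.31 ± 0.37 and 1.22 ± 0.35 (SE). Of 21 further interferon-induced genes that were tested, 6 were called higher in CD-fed and 5 in WD-fed mice and 0 lower. Called on both diets were Slfn5 (3.47 ± 0.39 and 3.27 ± 0.40), Ifi27l2a (3.66 ± 0.57 and 3.20 ± 0.58), Slfn2 (2.38 ± 0.45 and 2.05 ± 0.46), Sp100 (2.23 ± 0.35 and 1.63 ± 0.36) and Ddx60 (1.62 ± 0.36 and 1.88 ± 0.38), given as log2 fold change ± SE, and Oas1g was called on the CD alone (3.21 ± 0.79 against 3.01 ± 0.81). Of 11 GTPases that interferon gamma induces most strongly, Tgtp2 was called on both diets (log2 fold change 2.31 ± 0.45 and 2.45 ± 0.48, SE), and the other 10 on neither.

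The second question is whether the WD changed these genes within a gate. None of the 34 was called in either gate. In CD45hi cells 0 of 34 had an adjusted p under 0.05 by edgeR's glmQLFTest, beside 0.254% of all genes, and 5 of the 34 had an unadjusted p under 0.05, as did 2628 of the 14967 genes. In CD45lo cells 0 of 34 were called, beside 0% of all genes (123 of 14967 genes, and 1 of the 34, had an unadjusted p under 0.05). DESeq2, limma-voom and each other alternative also called 0 of the 34 in both gates. The median log2 fold change of WD over CD was 0.15 in CD45hi and 0.13 in CD45lo cells, beside -0.02 and 0.00 over all genes, and the difference in the mean log2 cpm over the 34 genes was 0.34 and 0.13, with overlapping libraries in both gates.

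**Figure D5:**
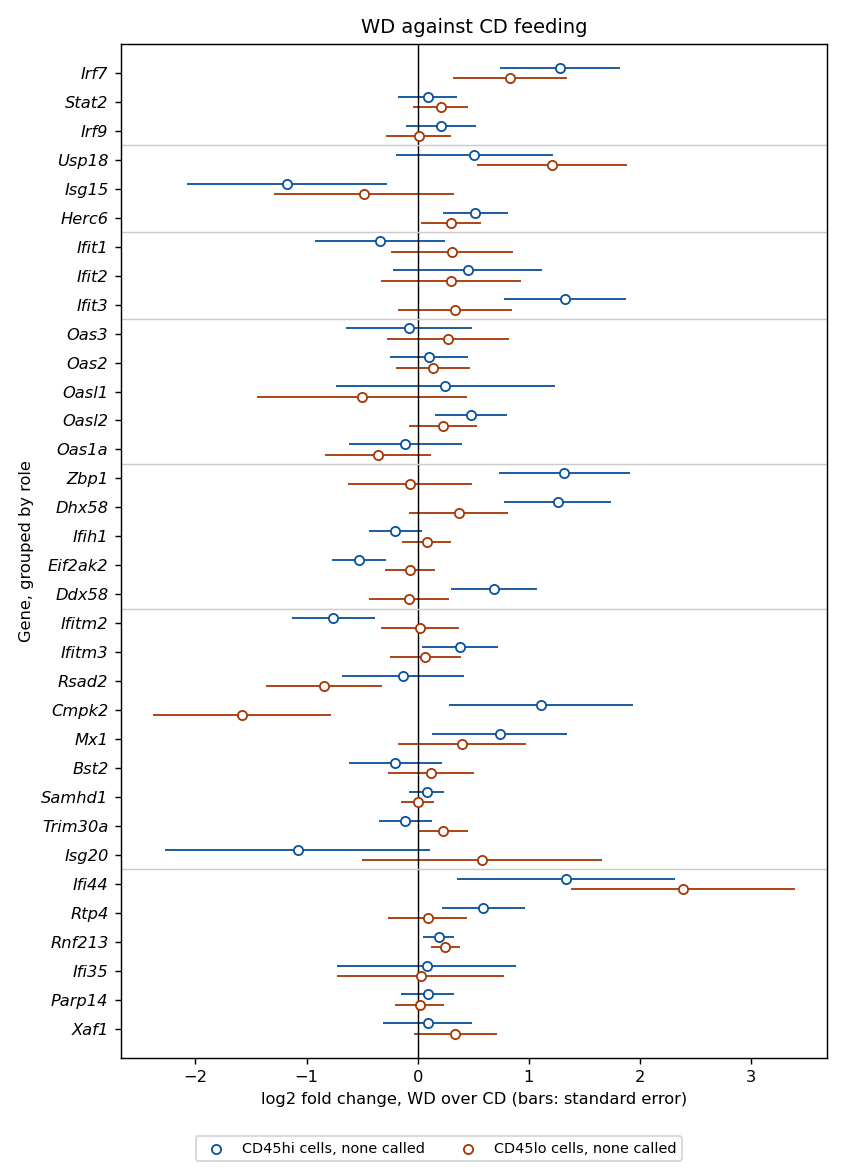
log2 fold change of WD over CD feeding (x axis, bars are the standard error) for each gene (y axis, grouped by role) in CD45hi (blue) and CD45lo (brown) cells; no gene was called. Values lie on both sides of 0, from -1.18 to 1.34 in CD45hi cells and from -1.58 to 2.39 in CD45lo cells.

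The lowest p in CD45hi cells belonged to Dhx58, at 13.7, 11.3, 18.6 and 8.95 cpm on the CD and 23.7, 14.4 and 56.2 cpm on the WD (log2 fold change 1.26 ± 0.48, SE, adjusted p = 0.191 by glmQLFTest). The diets overlapped, and the highest value was that of WD CD45hi replicate 3. Next were Ifit3 (log2 fold change 1.33 ± 0.55, SE, adjusted p = 0.225), Irf7 (1.28 ± 0.54, SE, adjusted p = 0.234), Zbp1 (1.32 ± 0.59, SE, adjusted p = 0.258) and Eif2ak2 (-0.53 ± 0.24, SE, adjusted p = 0.267). Of these Ifit3 and Zbp1 were highest in WD CD45hi replicate 1 and Irf7 and Dhx58 in replicate 3, and the per-library values of Irf7 and Zbp1 are given above. Eif2ak2 was 115, 137, 120.0 and 125 cpm in CD CD45hi and 106, 54.5 and 97.3 cpm in WD CD45hi libraries, which did not overlap. The same held for Ifitm2, lower on the WD (log2 fold change -0.76 ± 0.37, SE, adjusted p = 0.303), and for Rtp4 and Herc6, higher on the WD (0.59 ± 0.38 and 0.52 ± 0.30, SE), none of them called. Of all genes tested, 2.58% had every WD CD45hi library above every CD CD45hi library and 3.19% every one below, beside 2 and 2 of the 34.

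In CD45lo cells the lowest p was that of Ifi44, whose values, 3 of them below the floor, are given above (log2 fold change 2.39 ± 1.01, SE, unadjusted p = 0.0303 and adjusted p = 1.0 by glmQLFTest). Rnf213 was 163 to 178 cpm on the CD and 189 to 231 cpm on the WD in CD45lo cells, the sole gene of the 34 whose CD45lo libraries did not overlap between diets (log2 fold change 0.25 ± 0.13, SE, adjusted p = 1.0). Of all genes tested, 1.13% had every WD CD45lo library above every CD CD45lo library and 1.29% every one below.

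Whether the difference between CD45hi and CD45lo cells itself depended on the diet was tested as an interaction. Of all genes 0.00668% were called, and of the 34 none (smallest adjusted p = 0.441 by glmQLFTest, and 1 of the 34 with an unadjusted p under 0.05). That gene was Cmpk2, whose log2 fold change between gates was larger on the WD by 2.70 ± 1.15 (SE). The calls made on 1 diet and not on the other (Bst2 on the CD, Oasl1, Mx1 and Cmpk2 on the WD) are thus not shown to differ between diets. The labels give no batch, and which libraries ran on which of the sequencers named by the study is not given in the sources used here, so no value within a batch could be computed.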

How the data were processed

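RNA-seq was done on 15 libraries of sorted brain myeloid cells. The authors trimmed paired-end reads (NGS QC Toolkit), aligned them with Bowtie2 through RSEM to mm10 and deposited an expected count per gene (raw scale, with fractions) and a TPM value. The submitters' processing notes name RSEM 1.2.12 and bcl2fastq 2.18.0.12. The annotation release and the use of strand are not given in the sources used here, so overlapping antisense genes are uncertain. RSEM splits reads that match several genes, and 10 of the 34 genes had fractional counts in at least 8 libraries. These were Ddx58, Eif2ak2, Ifit3, Ifitm2, Mx1, Oas1a, Oas3, Samhd1, Trim30a and Xaf1.

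Expected counts were rounded, a gene was tested when 2 or more libraries reached 1 cpm (14967 of 38924), and TMM normalization was applied. All 15 libraries, grouped by diet and CD45 level from their titles, entered 1 edgeR 4.0.16 fit (earlier quasi-likelihood method, R 4.3.3). CD45 levels were compared by glmTreat at 1.5-fold, diets and the interaction by glmQLFTest, with Benjamini-Hochberg adjustment over all genes tested. The SE is the log2 fold change divided by the square root of F. The mean over the 34 genes was taken on log2 cpm after adding a prior count of 2, and TPM values were used as log2(TPM + 1). Replicates of 1 group had chi-square values per degree of freedom from 21.0 upward over 21 pairs, so none was a repeat. The study describes the deposited counts as being for each animal, and the labels do not say which libraries share one. Coordinates are from GENCODE M21 on mm10. The computation was tested on simulated data.

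The 34 genes and the other lists were chosen with earlier results of these data known, as were the roles. All 34 are named: those called between CD45 levels, or with the lowest p between diets, in full, and the rest by range. Of the pathway lists, ligands and receptors, called genes or else the 2 with the lowest p are named. The genes singled out beyond that (non-overlapping libraries between diets, and Irf1) were chosen after their values were seen. Alternatives were DESeq2 1.42.0, limma-voom (limma 3.58.1), the edgeR 4 form, DESeq2 size factors, other filters and fold thresholds, the compared groups alone, replicate blocks and each library left out. Fits without mitochondrial genes and with a replicate number as block across diets were added after seeing the data. Ifit3b and Chil3 are not listed under those symbols and are not used here.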

Additional observations from a re-analysis of the deposited data

Results flagged for a closer look

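In the groups of 4 libraries, 1 library stood apart from the other 3 for 11 of 105 sets of values checked (34 genes and their mean in 3 groups). For independent sets chance gives about 1 in 20. The sets come from the same libraries and include the mean of the genes, so they are not independent. Their number can therefore not be judged against that rate. In CD CD45lo cells replicate 1 was high for Oasl2 (32.1 cpm) and Ifi44 (1.12 cpm), and replicate 3 for Herc6 (67.4 cpm). In CD CD45hi cells replicate 4 was high for Oas3 (202.0 cpm) and Mx1 (94.6 cpm), replicate 2 was high for Oasl1 (21.5 cpm) and Rnf213 (469.0 cpm), and replicate 3 was low for Samhd1 (396.0 cpm). In WD CD45lo cells replicate 3 was high for Isg15 (3.90 cpm), replicate 4 for Isg20 (12.5 cpm) and replicate 2 for Parp14 (190.0 cpm). The 3 WD CD45hi libraries were too few for this check. The cause of these differences was not tested.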

How the results depend on the processing

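Over 26 alternatives each, the 30 calls between CD45 levels (14 in CD-fed and 16 in WD-fed mice) held in 694 of 780 fits, no log2 fold change changed sign, and 15 calls held in each fit. The 15 include those of Oas2, Oas3, Oasl2, Ifitm2, Ifitm3 and Samhd1 on both diets. With 1 library left out, the number of the 34 genes called was 9 to 16 in CD-fed and 11 to 17 in WD-fed mice, the number of all genes called was 412 to 705 and 513 to 920, and the difference in the mean over the 34 genes was 1.63 to 1.87 and 1.85 to 2.07. On the log2(TPM + 1) scale this difference was 1.2 and 1.23, and with each gene scaled to an SD of 1 it was 1.31 in CD-fed mice, in SD units. Tested for any change, 1202 and 1365 genes were called. The study's sort split CD11b+ CD45+ cells into both gates, so a CD45hi and a CD45lo library may come from 1 mouse. Which libraries would do so is not given in the sources used here. Libraries with the same replicate number did not deviate together (correlation of deviations from the group means -0.0217 to 0.0695). That cannot exclude shared mice, because the replicate numbers need not be those of mice. The main fit had no block, so its adjusted p values leave any such pairing out of account. With a replicate block by titles 8 and 8 of the 34 genes were called, and 398 genes in all in WD-fed mice, and with a replicate block by the numbers in the file names 8 and 8, and 353. Both blocks ended the calls of Irf7, Rsad2, Ifi44, Bst2, Rtp4 and Zbp1 in CD-fed mice and of Irf7, Rsad2, Ifi44, Ifit1, Oasl1, Mx1 and Cmpk2 in WD-fed mice, the block by titles also that of Zbp1 and the block by file names that of Rnf213 in WD-fed mice. Between diets, 0 of the 34 genes were called in each fit, while the number of all genes called in CD45hi cells, 38, was 1 to 286 with 1 library left out, 1030 by DESeq2, 252 with the edgeR 4 form, 69 with the stricter filter, 2 with the replicate number as a block across diets, 1 by glmTreat and 0 in a fit of the compared groups alone. In CD45lo cells DESeq2 called 4 genes. For the interaction DESeq2 called 188, and the edgeR 4 form, limma-voom and both blocks 0, with 0 to 6 when 1 library was left out. The cause of these changes was not tested. Levels under 3 counts (0.16 to 0.28 cpm), as for Ifi44 in CD45lo cells, limit the precision of fold changes.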
